A study of Mus musculus with 12 samples.

Results

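Nucleolar ribosome biogenesis factors are the proteins that make, modify, cut and fold ribosomal RNA (rRNA) and load ribosomal proteins onto it. The 56 genes described here were given by symbol as members of this module. The rule itself holds no measured value, but the members were chosen with earlier results of these data known. Each was found among the 46403 genes of the mouse kidney count table. All 56 passed the filter on low counts and are among the 23742 genes tested. They were sorted by the step they serve into RNA polymerase I (4 genes), box C/D small nucleolar ribonucleoproteins or snoRNPs (4), box H/ACA snoRNPs (4), the small ribosomal subunit (18), the large ribosomal subunit (21) and several steps (5).

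Polyadenylated RNA was sequenced from whole right kidneys of untreated mice, whose age the labels do not give. In the Grhl2KO_Myc group (n = 4), Grhl2 knockout was combined with Myc overexpression, from a cross of HoxB7-Cre; Grhl2flox/+ mice with R26StopFLMYC; Grhl2flox/flox mice. The Myc group (n = 3) is labelled by that genotype, its columns in the count table carry the word HET, and its cross is not stated. The wildtype group (n = 5) refers to R26StopFLMYC; Grhl2 flox/flox mice, so it carries the floxed Grhl2 alleles and the transgene behind its stop cassette, and no Cre is named for it. The HoxB7 promoter drives Cre in the ureteric bud and in the collecting ducts that grow out of it, which make up only a part of the whole kidneys measured. No label states whether replicates are separate mice, so p-values measure the spread between these samples.

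In the nucleolus RNA polymerase I transcribes a long precursor, which small nucleolar RNAs with their partner proteins then methylate or pseudouridylate. The small-subunit processome folds and cuts the part of the precursor that becomes the small subunit, while a separate set of GTPases, helicases and scaffold proteins matures the large subunit. Transcription of these genes is known to follow cell growth, and the transcription factor Myc, which binds the letters CACGTG, is a well-known activator of many of them. Many of the roles given here were first worked out for the yeast counterparts. Grhl2 is a transcription factor of epithelial cells, and in the kidney it is found in the collecting duct and distal nephron.

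Levels are given in CPM, the counts of a gene relative to the total of its library, which was scaled by the trimmed mean of M-values (TMM) to correct for composition. A gene was called when its Benjamini-Hochberg adjusted p over all 23742 genes was under 0.05 in the quasi-likelihood test of edgeR, fitted once over all 12 libraries. Total counts lay between 75187006 and 108164810 in Grhl2KO_Myc, 70608817 and 101043826 in Myc and 52973520 and 98713157 in wildtype. Grhl2 had 18.5, 19.0, 24.3 and 22.3 CPM in Grhl2KO_Myc kidneys, 28.5, 33.0 and 28.2 CPM in Myc kidneys and 29.2, 24.9, 25.6, 23.9 and 25.2 CPM in wildtype kidneys. Its log2 fold change in Grhl2KO_Myc was -0.29 ± 0.092 (SE) against wildtype, which edgeR did not call (adjusted p = 0.082), and -0.51 ± 0.10 against Myc, which it called (adjusted p = 0.044). The mouse Myc gene had 27.0 to 32.2 CPM in Grhl2KO_Myc, 19.1 to 27.6 in Myc and 19.8 to 34.4 in wildtype, with no call in any comparison, and whether transcripts of the transgene were counted under it is not stated. The libraries Grhl2KO_Myc 3, Grhl2KO_Myc 4 and wildtype 4 stand apart by low proximal tubule transcripts, and their values are set beside the results they touch.

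In Grhl2KO_Myc against wildtype, 41 of the 56 factors were called higher and 0 lower, where 4.06% of all genes tested were called higher and 2.61% lower (6.67% either way). All 56 had a log2 fold change above 0, as did 48.5% of all genes, and 51 had an unadjusted p under 0.05, against 22% of all genes. Their median log2 fold change was 0.344, beside -0.00744 over all genes tested. Single factors lay between 0.02 for Ubtf and 0.56 for Noc2l on the log2 scale, so the largest change was 47.2%. For 37 of the 56 every Grhl2KO_Myc library lay above every wildtype library, an order found for 5.67% of all genes, and for 0 of the 56 every one lay below (3.81% of all genes).

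Every step of the pathway held factors called higher, though unevenly. All 4 box C/D snoRNP genes, all 4 box H/ACA genes and all 5 genes of several steps were called higher, with median log2 fold changes of 0.459, 0.418 and 0.416. The small subunit had 12 of 18 called (median 0.324), the large subunit 14 of 21 (median 0.327) and RNA polymerase I 2 of 4 (median 0.253). Together the 56 factors took 0.447 to 0.516% of all counts in Grhl2KO_Myc libraries, 0.371 to 0.405% in Myc libraries and 0.355 to 0.416% in wildtype libraries, with no overlap between Grhl2KO_Myc and either of the others. Ncl and Npm1, at 717 and 739 CPM on average in Grhl2KO_Myc, weigh most in this sum. In RNA of a whole organ, fewer cells of a type and less RNA per cell cannot be told apart, and the same holds for more of either.

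**Figure D1:**
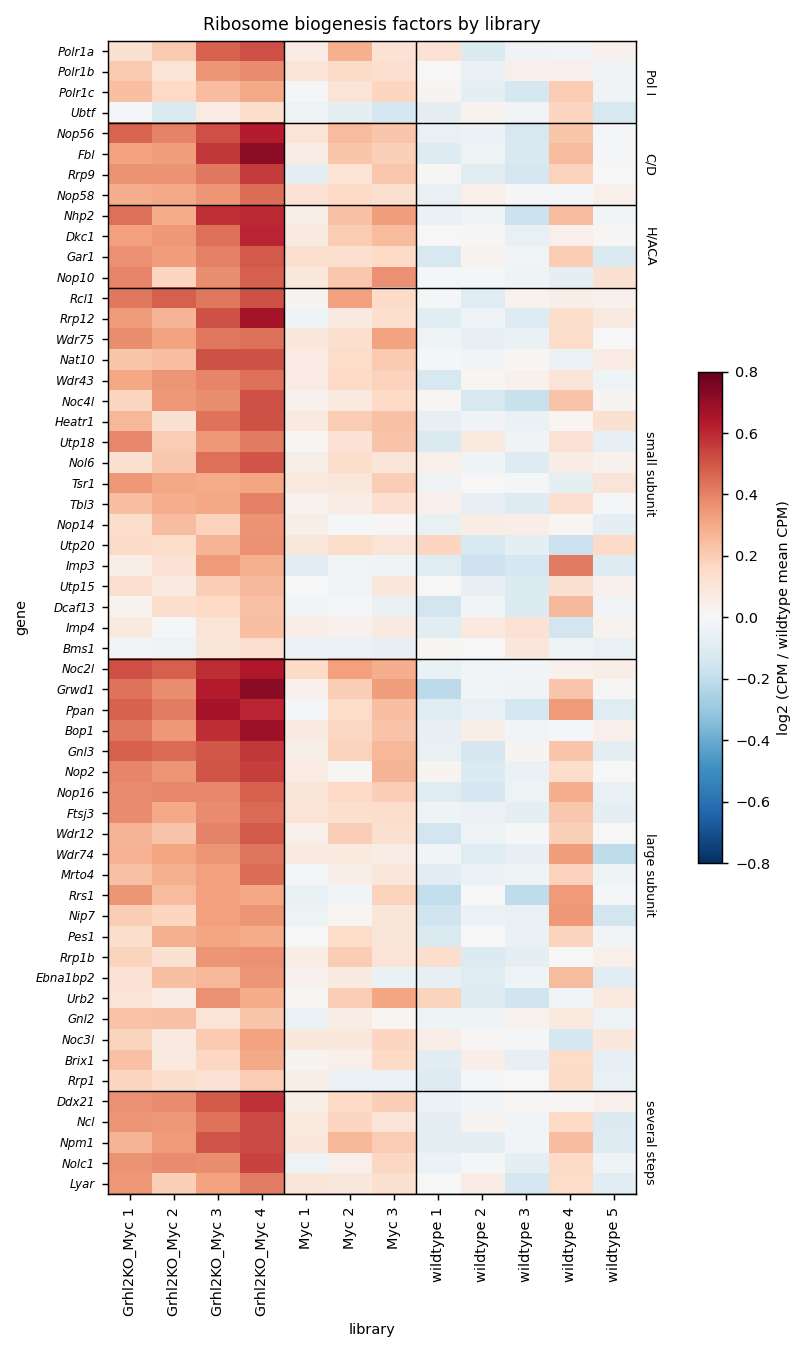
Heat map of the 56 factors (rows, grouped by step and ordered within a step by log2 fold change in Grhl2KO_Myc against wildtype) in the 12 libraries (columns), coloured by the log2 ratio of CPM to the wildtype mean. The 4 Grhl2KO_Myc columns are red in nearly all rows, the Myc columns are paler, and among wildtype columns the fourth is the reddest.

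The binding letters CACGTG were looked for in the promoters of the factors, defined as the 250 bases before the start of the gene and the 50 after it in RefSeq on build GRCm38.p6. The letters read the same on both strands, so 1 search covers both. Of the 47 factors with such a window, 8 held CACGTG (17%), against 10.5% of the 13518 tested genes with a window and 8.09% of all 27025 genes in the promoter table. The share was 6 of 34 (17.6%) among factors called higher in Grhl2KO_Myc against wildtype and 2 of 13 (15.4%, Utp20 and Imp4) among those not called. By step, the letters were in 5 of the 14 small-subunit factors and 3 of the 18 large-subunit factors with a window, and in 0 of 4 for RNA polymerase I, 0 of 3 for box C/D, 0 of 4 for box H/ACA and 0 of 4 for several steps; a factor with several annotated starts counts once. A match is a string in this window and does not show that any factor binds there. The promoters of the 6 called factors that hold the letters follow on the strand of their gene, 5′ to 3′, with CACGTG in capitals.
Wdr43: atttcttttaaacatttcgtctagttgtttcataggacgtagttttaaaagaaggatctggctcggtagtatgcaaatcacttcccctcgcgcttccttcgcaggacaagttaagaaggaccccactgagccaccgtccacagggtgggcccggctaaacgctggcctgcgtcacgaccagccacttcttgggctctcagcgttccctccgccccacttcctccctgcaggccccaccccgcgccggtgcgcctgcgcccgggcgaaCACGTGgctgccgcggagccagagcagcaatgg
Tsr1: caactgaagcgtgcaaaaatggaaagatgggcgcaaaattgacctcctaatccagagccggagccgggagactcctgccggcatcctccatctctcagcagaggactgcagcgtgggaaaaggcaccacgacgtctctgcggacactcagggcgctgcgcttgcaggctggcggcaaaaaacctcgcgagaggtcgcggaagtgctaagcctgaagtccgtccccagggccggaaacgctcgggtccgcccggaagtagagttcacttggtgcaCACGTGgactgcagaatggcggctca
Nop2: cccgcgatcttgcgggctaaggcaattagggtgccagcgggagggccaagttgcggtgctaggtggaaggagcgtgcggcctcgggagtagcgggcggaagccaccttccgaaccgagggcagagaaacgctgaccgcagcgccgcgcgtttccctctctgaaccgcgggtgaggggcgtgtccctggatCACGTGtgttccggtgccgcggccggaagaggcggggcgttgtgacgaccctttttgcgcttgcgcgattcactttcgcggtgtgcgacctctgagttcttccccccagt
Grwd1: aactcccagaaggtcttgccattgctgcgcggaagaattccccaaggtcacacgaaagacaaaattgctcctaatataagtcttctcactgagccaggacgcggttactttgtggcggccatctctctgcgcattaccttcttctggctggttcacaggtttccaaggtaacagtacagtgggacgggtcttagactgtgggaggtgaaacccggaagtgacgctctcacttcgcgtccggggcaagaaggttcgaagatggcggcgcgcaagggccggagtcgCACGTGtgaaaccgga
Utp18: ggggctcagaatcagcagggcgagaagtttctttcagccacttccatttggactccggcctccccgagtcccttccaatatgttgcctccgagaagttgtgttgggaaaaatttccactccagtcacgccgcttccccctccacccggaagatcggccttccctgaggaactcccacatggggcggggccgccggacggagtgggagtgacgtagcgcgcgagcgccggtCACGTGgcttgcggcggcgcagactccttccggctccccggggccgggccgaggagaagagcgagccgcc
Pes1: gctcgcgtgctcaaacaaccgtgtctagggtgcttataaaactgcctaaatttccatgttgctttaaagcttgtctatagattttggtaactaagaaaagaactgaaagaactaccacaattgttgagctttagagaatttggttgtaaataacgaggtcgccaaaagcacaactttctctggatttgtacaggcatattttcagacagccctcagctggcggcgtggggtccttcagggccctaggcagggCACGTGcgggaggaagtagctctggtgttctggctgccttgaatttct
The windows are chr17:71615965-71616264 (plus strand) for Wdr43, chr11:74897830-74898129 (plus) for Tsr1, chr6:125131633-125131932 (plus) for Nop2, chr7:45830740-45831039 (minus) for Grwd1, chr11:93885717-93886016 (minus) for Utp18 and chr11:3963725-3964024 (plus) for Pes1. Counted from the RefSeq start as 0, the first base of CACGTG lies at 17 in Wdr43, 24 in Tsr1, 34 in Grwd1 and 2 in Pes1, after that start. It lies at -20 in Utp18 and -60 in Nop2, before that start. The gene positions given below are from GENCODE, whose starts can differ from those of RefSeq. The whole window of Wdr43, for example, lies within its GENCODE gene.

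RNA polymerase I makes the rRNA precursor. Polr1b, its second-largest subunit (chr2:129100995-129126594, plus strand, mm10), had 53.5, 49.9, 59.1 and 60.2 CPM in Grhl2KO_Myc kidneys, 49.9, 51.4 and 50.7 CPM in Myc kidneys and 46.4, 44.6, 47.5, 47.5 and 45.4 CPM in wildtype kidneys. All Grhl2KO_Myc libraries lay above all wildtype libraries, while Grhl2KO_Myc 2 was level with the lowest Myc library. The log2 fold change against wildtype was 0.27 ± 0.055 (SE; edgeR adjusted p = 0.014), and the call was lost without Grhl2KO_Myc 3 (adjusted p = 0.051), without Grhl2KO_Myc 4 (0.050) and without the 3 libraries low in proximal tubule transcripts (0.057). Polr1a, the largest and catalytic subunit, averaged 59.7 ± 7.93 CPM in Grhl2KO_Myc and 47.2 ± 2.70 in wildtype (SD, n = 4 and 5) and was called (log2 0.34, adjusted p = 0.032). Leaving out Grhl2KO_Myc 3 or 4, or wildtype 2, 3 or 5, ended that call, with adjusted p between 0.058 and 0.10, as did leaving out the 3 libraries low in proximal tubule transcripts (log2 0.16, adjusted p = 0.23).

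The other members of this step were not called. Polr1c, a subunit that RNA polymerase I shares with RNA polymerase III, had 43.9, 41.4, 44.0 and 45.8 CPM in Grhl2KO_Myc and 37.7, 35.2, 33.6, 42.7 and 36.4 CPM in wildtype. Wildtype 4 was the highest of its group and overlapped the Grhl2KO_Myc range, and the adjusted p of 0.057 became 0.0037 without that library. Leaving out wildtype 4 raised the calls over all genes from 1584 to 3778, and leaving out any other single library gave no call of Polr1c. Ubtf, the architectural factor that holds the rRNA genes open for the polymerase, had 191, 178, 202 and 213 CPM in Grhl2KO_Myc and 184, 197, 190, 218 and 177 CPM in wildtype. The groups overlapped almost fully, and the log2 fold change was 0.02 with an approximate 95% interval of -0.11 to 0.15, and its sign changed under 5 of the 20 alternative settings.

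Box C/D snoRNPs add methyl groups to ribose along the precursor. Nop58, a core protein of every such particle (chr1:59684971-59719044, plus strand), had 114, 115, 119 and 127 CPM in Grhl2KO_Myc kidneys, 101, 104 and 102 CPM in Myc kidneys and 89.3, 95.7, 92.6, 92.4 and 95.8 CPM in wildtype kidneys. The 3 groups did not overlap, with Myc between the others. The log2 fold change in Grhl2KO_Myc against wildtype was 0.35 ± 0.042 (SE; adjusted p = 0.00068). Its partner Nop56 was 1.42-fold higher (log2 0.51 ± 0.071, adjusted p = 0.0015), and Fbl, the methyltransferase fibrillarin, 1.41-fold higher (0.49 ± 0.094, adjusted p = 0.0096). Rrp9, which is specific to the U3 particle that guides the first cuts, was 1.34-fold higher (0.42 ± 0.080, adjusted p = 0.0093).

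Wildtype 4 was the highest wildtype library for Nop56, Fbl and Rrp9, at 131, 83.6 and 20.7 CPM, and still lay below every Grhl2KO_Myc library, whose lowest values were 148, 87.6 and 23.3 CPM. Reads of other genes could touch these values: a processed pseudogene, Gm5812, is 96.85% identical to Fbl over 984 bases, a stretch of 690 bases in Tulp4 is 99.56% identical to it, and small nucleolar RNA genes overlap exons of Nop56 on the same strand. The treatment of reads that match several places is not stated. Gm5812 itself averaged 18.4 ± 1.80 CPM in Grhl2KO_Myc and 13.2 ± 1.74 in wildtype (adjusted p = 0.022).

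Box H/ACA snoRNPs turn uridine into pseudouridine, and the same proteins also belong to telomerase. Dkc1, the pseudouridine synthase dyskerin (chrX:75095854-75109777, plus strand), had 55.1, 55.8, 59.6 and 67.1 CPM in Grhl2KO_Myc kidneys, 46.3, 50.5 and 52.4 CPM in Myc kidneys and 43.9, 44.3, 42.2, 45.2 and 44.2 CPM in wildtype kidneys. Here too the groups did not overlap, and Grhl2KO_Myc 4 was the highest of all 12 libraries. The log2 fold change against wildtype was 0.44 ± 0.061 (SE; adjusted p = 0.0016). Nhp2, Gar1 and Nop10, the small proteins that complete the particle, were 1.40-fold, 1.32-fold and 1.28-fold higher (adjusted p = 0.0090, 0.0054 and 0.014). The call of Nop10 was lost without Grhl2KO_Myc 4 (adjusted p = 0.051) and without the 3 libraries low in proximal tubule transcripts (0.095).

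**Figure D2:**
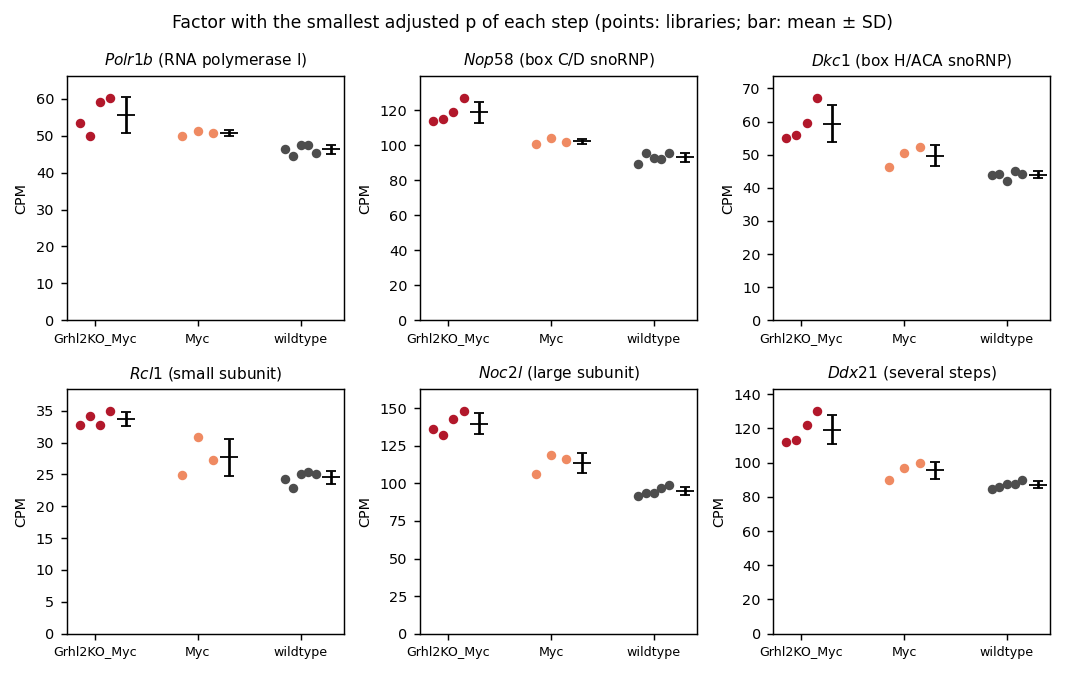
CPM of the factor with the smallest adjusted p of each step in Grhl2KO_Myc against wildtype; points are libraries, bars are means ± SD (n = 4 Grhl2KO_Myc, 3 Myc and 5 wildtype), and each axis starts at 0. In every panel all Grhl2KO_Myc points lie above all wildtype points.

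The small-subunit processome assembles on the precursor while it is being made. Rcl1, which binds the GTPase Bms1 within it (chr19:29101375-29143929, plus strand), had 32.8, 34.2, 32.8 and 34.9 CPM in Grhl2KO_Myc kidneys, 24.9, 30.8 and 27.3 CPM in Myc kidneys and 24.3, 22.9, 25.0, 25.3 and 25.1 CPM in wildtype kidneys. Grhl2KO_Myc libraries were the highest and close together, and Myc 1 fell inside the wildtype range. Against wildtype the log2 fold change was 0.46 ± 0.061 (SE; adjusted p = 0.0012).

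Wdr43, a subunit of the processome complex that is loaded first (chr17:71615895-71659031, plus strand), had 86.9, 89.5, 92.0 and 95.1 CPM in Grhl2KO_Myc kidneys, 73.2, 78.3 and 79.7 CPM in Myc kidneys and 64.2, 70.9, 71.7, 75.2 and 68.3 CPM in wildtype kidneys. Grhl2KO_Myc stood clear of both groups, with a log2 fold change against wildtype of 0.38 ± 0.051 (SE; adjusted p = 0.0013). Tsr1, a GTPase-like factor of the last cytoplasmic steps (chr11:74898071-74909342, plus strand), had 81.4, 79.6, 78.9 and 79.9 CPM in Grhl2KO_Myc kidneys, 67.6, 68.4 and 73.6 CPM in Myc kidneys and 62.8, 64.3, 63.8, 60.8 and 68.8 CPM in wildtype kidneys. Its Grhl2KO_Myc values lay close together above both other groups, while Myc 1 and 2 fell within the wildtype range. The log2 fold change was 0.32 ± 0.044 (SE; adjusted p = 0.0014), with the limit that 32.3% of the exon bases of Tsr1 lie opposite exons of Srr in counts that cannot use strand. Srr itself averaged 63.8 ± 5.90 CPM in Grhl2KO_Myc and 59.2 ± 7.41 in wildtype (adjusted p = 0.53).

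A further 9 small-subunit factors were called higher, by 0.24 (Nop14) to 0.46 (Rrp12) on the log2 scale. They were Rrp12, which takes part in export of the pre-ribosome, Nat10, which acetylates cytidines of rRNA, Wdr75, Heatr1, Utp18, Tbl3 and Nol6 of the processome, and the partners Nop14 and Noc4l. The largest adjusted p among them was 0.030, for Noc4l. Calls of Noc4l, Heatr1, Nol6 and Nop14 were lost without Grhl2KO_Myc 4, with adjusted p of 0.096, 0.070, 0.065 and 0.068. Without the 3 libraries low in proximal tubule transcripts those of Heatr1, Nol6 and Nop14 were lost, at adjusted p of 0.12, 0.071 and 0.070. Noc4l, Heatr1 and Nol6 also lost theirs without Grhl2KO_Myc 3 or wildtype 2 or 3, Noc4l and Heatr1 without wildtype 1, Noc4l without Grhl2KO_Myc 2 or wildtype 5 and Nop14 without wildtype 1, with adjusted p up to 0.081. Of the exon bases of Tbl3, 37.3% lie opposite Noxo1, a gene with 6.08 ± 0.663 CPM in Grhl2KO_Myc and 5.75 ± 0.385 in wildtype.

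The other 6 small-subunit factors were not called. Utp20, a large scaffold protein, had 43.3, 43.0, 47.0 and 50.1 CPM in Grhl2KO_Myc and 43.9, 35.8, 37.1, 34.6 and 43.2 CPM in wildtype, where wildtype 1 and 5 reached the Grhl2KO_Myc range (log2 0.24, adjusted p = 0.092). Utp15, from the complex that holds Wdr43, had 34.4, 33.1, 36.1 and 37.6 CPM in Grhl2KO_Myc and 31.6, 30.1, 29.2, 34.3 and 32.2 CPM in wildtype (log2 0.17, adjusted p = 0.11). In Utp15 as in the next pair, wildtype 4 was the highest wildtype library.

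Imp3, which joins the U3 RNA to the precursor, had 44.9, 46.9, 54.7 and 52.6 CPM in Grhl2KO_Myc and 40.4, 38.6, 39.3, 57.7 and 40.3 CPM in wildtype (log2 0.20, adjusted p = 0.31). Dcaf13, the mammalian counterpart of yeast Sof1, had 29.7, 32.1, 32.6 and 34.3 CPM in Grhl2KO_Myc and 26.3, 28.8, 27.1, 35.0 and 28.7 CPM in wildtype (log2 0.14, adjusted p = 0.32). In both, wildtype 4 exceeded every Grhl2KO_Myc library and the other wildtype libraries lay below all of them. Without wildtype 4 the adjusted p was 0.0037 for Imp3, 0.019 for Dcaf13 and 0.026 for Utp15. That omission raised the calls over all genes from 1584 to 3778, and no other single omission gave a call of these genes.

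Imp4, the binding partner of Imp3, had 44.7, 42.2, 45.6 and 50.2 CPM in Grhl2KO_Myc and 40.0, 44.7, 45.9, 38.3 and 43.2 CPM in wildtype (log2 0.11, adjusted p = 0.36). Bms1, the GTPase that binds Rcl1, had 71.0, 70.0, 76.9 and 79.2 CPM in Grhl2KO_Myc and 72.4, 71.8, 76.6, 70.3 and 69.2 CPM in wildtype (log2 0.04, adjusted p = 0.64). Both pairs of groups overlapped, and wildtype 4 was the lowest of its group for Imp4 and not apart for Bms1. The approximate 95% interval of the log2 difference was -0.02 to 0.23 for Imp4 and -0.05 to 0.14 for Bms1, and both differences turned below 0 without the 3 libraries low in proximal tubule transcripts, to -0.01 and -0.05.

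Large-subunit factors included the largest changes. Noc2l, part of a complex that carries early large-subunit precursors (chr4:156236010-156247616, plus strand), had 136, 132, 143 and 148 CPM in Grhl2KO_Myc kidneys, 106, 119 and 116 CPM in Myc kidneys and 91.4, 93.7, 93.7, 97.2 and 98.7 CPM in wildtype kidneys. The 3 groups did not overlap. The log2 fold change against wildtype was 0.56 ± 0.049 (SE; adjusted p = 9.1e-05). Of its exon bases 20.9% lie opposite Samd11, which was itself called higher, at 29.9 ± 1.85 CPM in Grhl2KO_Myc and 20.6 ± 2.53 in wildtype (log2 0.54, adjusted p = 0.0028), and which reads belong to which of this pair cannot be told apart.

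Bop1, the scaffold of the complex with Pes1 and Wdr12 that is needed for large-subunit rRNA processing (chr15:76452989-76477277, minus strand), had 56.6, 53.9, 63.7 and 67.6 CPM in Grhl2KO_Myc kidneys, 44.5, 47.4 and 49.5 CPM in Myc kidneys and 40.4, 43.8, 41.7, 42.0 and 43.6 CPM in wildtype kidneys. Again the groups did not overlap, and the log2 fold change against wildtype was 0.52 ± 0.065 (SE; adjusted p = 0.00083). Wdr12 and Pes1 were called as well, at 1.28-fold and 1.20-fold (adjusted p = 0.015 and 0.027). Both calls were lost without Grhl2KO_Myc 4 (0.055 and 0.079), and that of Pes1 also without Grhl2KO_Myc 2 or 3 or wildtype 1, 2, 3 or 5 (up to 0.080). Gnl3, the nucleolar GTPase nucleostemin (chr14:31012433-31019152, minus strand), had 66.1, 64.9, 67.1 and 70.3 CPM in Grhl2KO_Myc kidneys, 49.0, 54.0 and 57.1 CPM in Myc kidneys and 45.5, 43.2, 48.1, 55.3 and 45.2 CPM in wildtype kidneys. Wildtype 4 reached into the Myc range but not into that of Grhl2KO_Myc, and the log2 fold change was 0.50 ± 0.070 (SE; adjusted p = 0.0016).

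Among the other large-subunit factors called, Grwd1, known from yeast as a chaperone of a ribosomal protein, changed by 0.55 on the log2 scale, Ppan, a processing factor, by 0.54, and Nop2, a cytosine methyltransferase of large-subunit rRNA, by 0.45 (adjusted p = 0.0066, 0.0075 and 0.0028). Nop16, Ftsj3 (an rRNA methyltransferase), Wdr74, Mrto4 (a factor that holds the place of the stalk protein), Rrp1b and the GTPase Gnl2 lay between 0.20 and 0.41. Wdr74 lost its call without any single library other than wildtype 4, and Rrp1b lost it without Grhl2KO_Myc 1, 3 or 4, any Myc library or wildtype 2, 3 or 5, with adjusted p up to 0.12 and 0.13. Gnl2 lost it without Grhl2KO_Myc 1, 2 or 4 or wildtype 2 or 5, with adjusted p up to 0.061. The call of Rrp1b was also lost without the 3 libraries low in proximal tubule transcripts (log2 0.14, adjusted p = 0.28).

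The other 7 large-subunit factors were not called, and wildtype 4 was the highest wildtype library for 5 of them. Rrs1, which helps to bring the 5S particle into the precursor, had 46.8, 43.6, 45.9 and 45.4 CPM in Grhl2KO_Myc and 31.9, 36.6, 31.8, 46.4 and 36.3 CPM in wildtype (log2 0.31, adjusted p = 0.085). Nip7, a small protein of precursor cleavage, had 31.7, 31.1, 34.7 and 35.3 CPM in Grhl2KO_Myc and 24.8, 26.7, 26.5, 35.2 and 25.0 CPM in wildtype (log2 0.26, adjusted p = 0.13). In both the 4 other wildtype libraries lay below every Grhl2KO_Myc library, and without wildtype 4 the adjusted p was 0.0020 for Rrs1 and 0.0016 for Nip7. As said above, calls over all genes also rose without wildtype 4, and no other single omission gave a call of either gene.

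Ebna1bp2, which works with Rrs1, had 47.6, 52.0, 53.0 and 56.3 CPM in Grhl2KO_Myc and 42.0, 41.2, 43.0, 52.4 and 41.4 CPM in wildtype (log2 0.25, adjusted p = 0.072). Brix1, a scaffold that binds rRNA, had 51.2, 46.1, 48.8 and 53.7 CPM in Grhl2KO_Myc and 41.2, 45.3, 41.7, 48.2 and 41.6 CPM in wildtype (log2 0.20, adjusted p = 0.081). Rrp1, an early nucleolar factor, had 164, 161, 158 and 168 CPM in Grhl2KO_Myc and 136, 145, 146, 162 and 140 CPM in wildtype (log2 0.16, adjusted p = 0.097). Only wildtype 4 overlapped the Grhl2KO_Myc libraries in these 3 genes, and without it their adjusted p was 0.0021, 0.016 and 0.0078. Here too no other single omission gave a call.

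For the last pair wildtype 4 was not the highest. Noc3l, a further carrier of large-subunit precursors, had 27.2, 25.2, 27.7 and 30.0 CPM in Grhl2KO_Myc and 24.9, 24.2, 23.7, 21.8 and 25.4 CPM in wildtype (log2 0.20, adjusted p = 0.078). Urb2, a nucleolar protein of this step, had 17.7, 17.1, 21.2 and 20.2 CPM in Grhl2KO_Myc and 18.6, 15.3, 14.7, 16.2 and 17.3 CPM in wildtype (log2 0.22, adjusted p = 0.19). The groups overlapped in both.

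All 5 factors that serve several steps were called higher. Ddx21, an RNA helicase that joins transcription and processing of rRNA (chr10:62580251-62602281, minus strand), had 112, 113, 122 and 130 CPM in Grhl2KO_Myc kidneys, 89.9, 97.0 and 99.7 CPM in Myc kidneys and 84.3, 85.7, 87.7, 87.6 and 89.6 CPM in wildtype kidneys. The groups did not overlap, and the log2 fold change against wildtype was 0.45 ± 0.052 (SE; adjusted p = 0.00052). Nucleolin (Ncl), the main RNA-binding protein of the nucleolus, averaged 717 ± 43.3 CPM in Grhl2KO_Myc and 537 ± 40.6 in wildtype, and the histone chaperone nucleophosmin (Npm1) 739 ± 63.0 and 554 ± 58.1 CPM in the same groups (SD; adjusted p = 0.0031 and 0.012). Nolc1, a chaperone of snoRNPs, and Lyar, a nucleolar zinc-finger protein, had log2 fold changes of 0.41 and 0.32 (adjusted p = 0.0022 and 0.012).

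The factors differ far more in level than in change. Per kilobase (RPKM, here CPM divided by the gene width listed in the deposited table, whose definition is not stated), Npm1 led with 277 ± 23.6 RPKM in Grhl2KO_Myc, 236 ± 14.8 in Myc and 208 ± 21.8 in wildtype (SD). The listed width is shorter than the exon bases of the annotation for some factors, as for Fbl with 1159 against 4209 bases, so the order of levels between these is uncertain, while it equals them for Npm1 and Urb2. Urb2 was the lowest with 3.10 ± 0.318 RPKM in Grhl2KO_Myc, 3.02 ± 0.318 in Myc and 2.67 ± 0.252 in wildtype. The median over the 56 factors in wildtype was 13.2 RPKM, beside 4.02 over all genes tested. Across the 56 factors, wildtype level and log2 fold change in Grhl2KO_Myc against wildtype had a Spearman correlation of 0.199, as a description over genes measured in the same libraries.

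**Figure D3:**
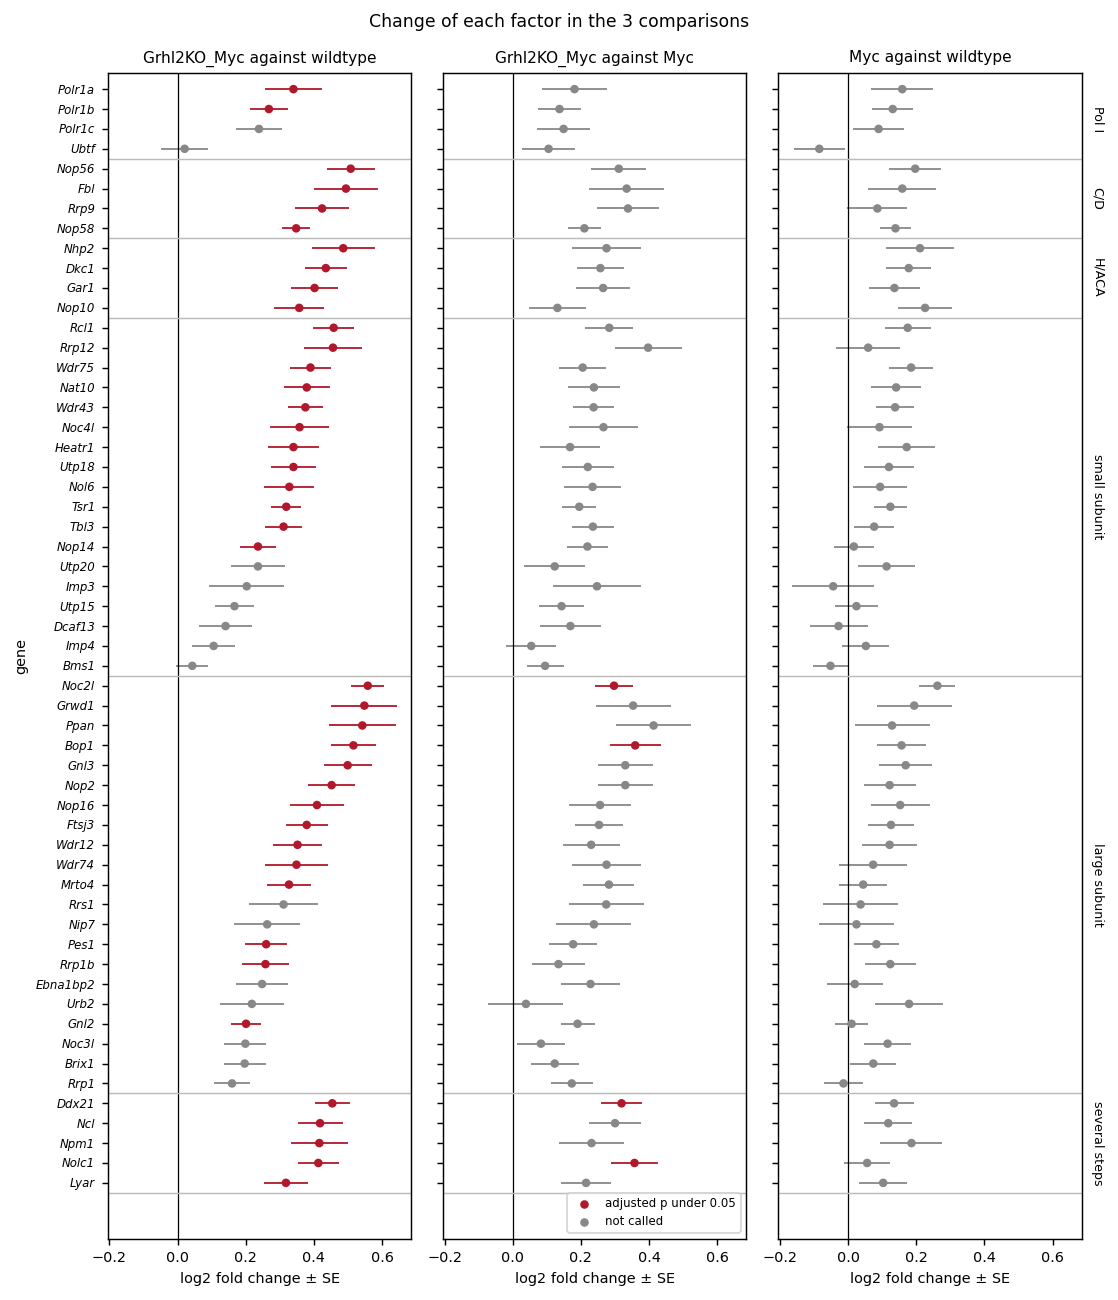
Log2 fold change ± SE of each factor in Grhl2KO_Myc against wildtype, Grhl2KO_Myc against Myc and Myc against wildtype, ordered as in the heat map; red marks an adjusted p under 0.05 over all genes. All points of the left and middle panels lie right of 0, with 41 and 4 called, and in the right panel 51 of 56 lie right of 0 with none called.

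Grhl2KO_Myc against Myc sets both groups labelled with Myc side by side and shares its Grhl2KO_Myc libraries with the comparison above. Since the cross of the Myc group is not stated, alleles other than Grhl2 may differ between them. Only 4 factors were called higher by edgeR and 0 lower, where 0.358% of all genes were called higher and 0.484% lower (0.842% either way). Ddx21 had a log2 fold change of 0.32 ± 0.060 (SE; adjusted p = 0.029), Noc2l 0.30 ± 0.056 (0.030), Nolc1 0.36 ± 0.070 (0.036) and Bop1 0.36 ± 0.075 (0.048). In each of these 4 every Grhl2KO_Myc library lay above every Myc library, as the values above show for 3 of them, while Nolc1 had 89.9, 91.3, 90.7 and 102 CPM in Grhl2KO_Myc and 68.2, 72.1 and 78.7 CPM in Myc. None of these 4 calls held in every alternative setting: the number called was 0 without Grhl2KO_Myc 3, Grhl2KO_Myc 4 or any 1 of the 3 Myc libraries, and 21 without wildtype 4 or by DESeq2, where 1.43% and 1.73% of all genes were called higher.

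Beyond the calls, all 56 factors had a log2 fold change above 0 in this comparison (50.5% of all genes did), with a median of 0.234 beside 0.00229 over all genes, and a range of 0.04 (Urb2) to 0.41 (Ppan). For 40 of the 56 the unadjusted p was under 0.05, against 13.3% of all genes. All Grhl2KO_Myc libraries lay above all Myc libraries for 39 factors, against 8.95% of all genes, and below them for 0, against 7.89%. By step, the median was 0.323 for box C/D, 0.300 for several steps, 0.261 for box H/ACA, 0.253 for the large subunit, 0.220 for the small subunit and 0.143 for RNA polymerase I. Rrp12 and Ppan, whose log2 fold changes of 0.40 and 0.41 were the largest of their steps, were not called (adjusted p = 0.094 and 0.13).

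In Myc against wildtype edgeR called 0 of the 56 factors, and 1 of all 23742 genes (0.00421%), while DESeq2 called 1 factor, Noc2l (log2 0.26, adjusted p = 0.016), and 0.179% of all genes higher. Of the 56, 51 had a log2 fold change above 0 (50% of all genes did), with a median of 0.121, a range of -0.08 to 0.26 and an unadjusted p under 0.05 for 13, against 4.62% of all genes. All Myc libraries lay above all wildtype libraries for 7 factors, against 2.22% of all genes: Polr1b, Nop58, Dkc1, Bop1, Noc2l, Noc3l and Ddx21, named here after their values were seen. Without wildtype 4 in the order, this held for 29 of the 56 (5.46% of all genes). The largest difference was that of Noc2l, 0.26 ± 0.053 (SE; edgeR adjusted p = 0.48). A p that misses the threshold does not show that the groups are alike: the approximate 95% interval of the log2 difference was 0.16 to 0.37 for Noc2l, 0.02 to 0.25 for Ddx21 and -0.02 to 0.26 for Ncl.

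Side by side, Noc2l had 1.47-fold, 1.23-fold and 1.20-fold the level in Grhl2KO_Myc against wildtype, Grhl2KO_Myc against Myc and Myc against wildtype. The same values were 1.33-fold, 1.28-fold and 1.04-fold for Nolc1, and 1.28-fold, 1.10-fold and 1.17-fold for Nop10. Each pair of these comparisons shares the libraries of 1 group, so their likeness was not tested.

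**Figure D4:**
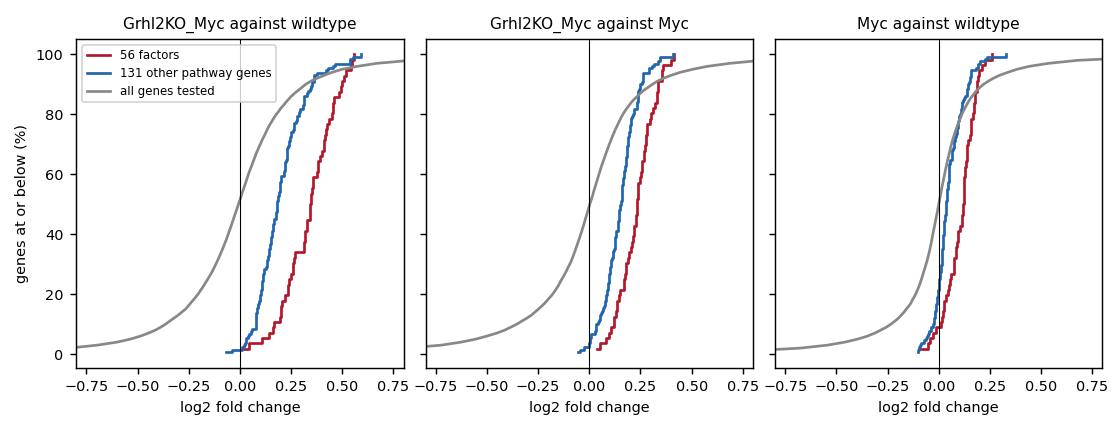
Share of genes at or below each log2 fold change in the 3 comparisons, for the 56 factors, the 131 other genes of the pathway and all genes tested. The curve of the 56 factors lies right of that of the other pathway genes, with medians of 0.344 and 0.182 in Grhl2KO_Myc against wildtype, 0.234 and 0.153 in Grhl2KO_Myc against Myc and 0.121 and 0.0378 in Myc against wildtype. Both lists were chosen with earlier results of these data known.

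A further list of 131 genes of ribosome biogenesis, taken from textbook knowledge and not overlapping the 56, gave smaller values. Both lists were chosen with earlier results of these data known, so the gap between them may reflect that choice and was not tested. In Grhl2KO_Myc against wildtype 47 of the 131 were called higher and 0 lower, where 4.06% of all genes were called higher and 2.61% lower. Their median log2 fold change was 0.182, with 129 above 0 (48.5% of all genes). The nuclease subunit Rpp40 had the largest change, 0.59 ± 0.089 (SE; adjusted p = 0.0025), at 8.98 ± 0.428 CPM in Grhl2KO_Myc and 5.96 ± 0.559 in wildtype. Of the small subunit, 16 of 42 were called, and the smallest adjusted p belonged to Wdr46 (log2 0.55), Utp14a (0.35) and Wdr36 (0.28), all of the processome. Of the large subunit, 19 of 46 were called, and the smallest adjusted p belonged to Mak16 (0.43), Nle1 (0.54) and Mybbp1a (0.46).

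RNA polymerase I had 2 of 12 further genes called, the subunit Polr1e (0.46) and Taf1d of the promoter factor (0.33), while the subunit Cd3eap missed the threshold (0.31, adjusted p = 0.057). In the box C/D group 2 of 8 were called, Nhp2l1, a core protein (0.31), and Ruvbl2, an assembly ATPase (0.32), and Znhit6 was not (0.22, adjusted p = 0.069). Of 2 assembly factors of box H/ACA particles, Shq1 was called (0.31, adjusted p = 0.037) and Naf1 was not (0.09, adjusted p = 0.38). Pre-rRNA nucleases and the exosome had 7 of 21 called, among them the exosome subunits Exosc5 (0.42) and Exosc7 (0.24). In Grhl2KO_Myc against Myc and in Myc against wildtype edgeR called 0 of the 131, where it called 0.842% and 0.00421% of all genes. In these 2 comparisons 58 and 8 of the 131 had an unadjusted p under 0.05, against 13.3% and 4.62% of all genes, so the 8 lie near the share of all genes. DESeq2 called 10 and 0 of the 131, where it called 1.73% and 0.179% of all genes higher.

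The libraries of a group were not alike. A score for each library, the mean over the 56 factors of log2 CPM relative to all libraries, was 0.14, 0.12, 0.23 and 0.31 in Grhl2KO_Myc, -0.09, -0.02 and 0.02 in Myc and -0.18, -0.17, -0.19, -0.01 and -0.15 in wildtype. For 44 of the 56 factors Grhl2KO_Myc 3 and 4 both lay above Grhl2KO_Myc 1 and 2 (27.7% of all genes), and for 39 wildtype 4 was the highest wildtype library (32.1% of all genes). These are the 3 libraries with the lowest scores of 30 proximal tubule markers, -1.08 and -1.0 in Grhl2KO_Myc 3 and 4 and -1.32 in wildtype 4, where the other 9 lay between -0.13 and 0.77.

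**Figure D5:**
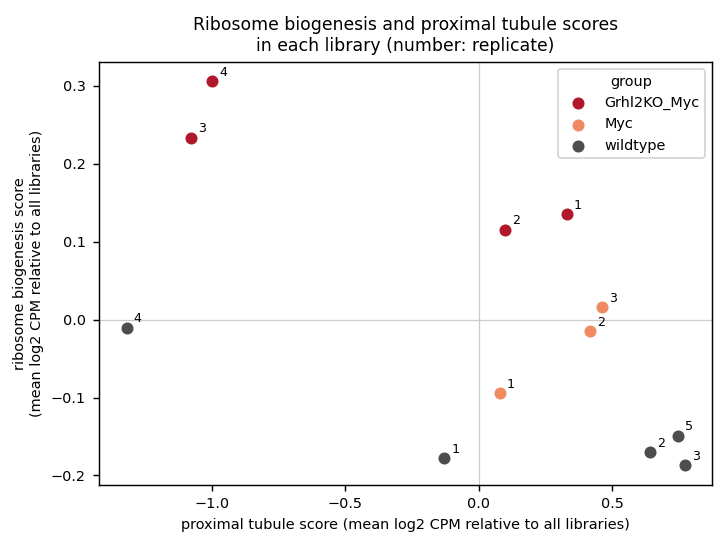
Ribosome biogenesis score of the 56 factors (vertical) against the score of 30 proximal tubule markers (horizontal) in each library, both as mean log2 CPM relative to all libraries; numbers are replicates. Grhl2KO_Myc 3 and 4 and wildtype 4 lie at the left, and at the left as at the right the Grhl2KO_Myc points lie above the wildtype points.

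Among the libraries not low in proximal tubule transcripts, Grhl2KO_Myc 1 and 2 both lay above wildtype 1, 2, 3 and 5 for 49 of the 56 factors (17.4% of all genes), and above every Myc library for 39 (17.3% of all genes). Without the 3 low libraries, 40 factors were called higher in Grhl2KO_Myc against wildtype, 34 of them among the 41. The median log2 fold change of the 56 was then 0.304, and 4.87% of all genes were called higher. Lost were Polr1a, Polr1b, Nop10, Nop14, Heatr1, Nol6 and Rrp1b, and gained were Polr1c, Imp3, Rrp1, Rrs1, Nip7 and Ebna1bp2. With the proximal tubule score as a term in the fit 41 were called, 40 of them shared, as Rrp1b was lost and Ebna1bp2 gained. The median was 0.301, and 5.55% of all genes were called higher. For Grhl2KO_Myc against Myc the medians were 0.165 without those libraries and 0.168 with the covariate, and the calls 1 and 4, where 0.426% and 0.48% of all genes were called higher.

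Other markers moved with Grhl2KO_Myc too, and their part in the result was not tested. Of 8 markers of collecting duct principal cells, 0 were called higher and 2 lower, the water channel Aqp4 at 15.2 CPM on average in Grhl2KO_Myc and 37.1 in wildtype (log2 -1.29, adjusted p = 0.0016) and the vasopressin receptor Avpr2 at 7.45 and 14.2 CPM in the same groups (-0.93, adjusted p = 0.00029). The list was mixed, as 4 of the 8 had a log2 fold change above 0 and the median was -0.0692. The highest was Hsd11b2 (0.745, edgeR adjusted p = 0.066). Of 6 markers of intercalated cells 1 was called lower, the channel Aqp6 (-1.63, adjusted p = 0.0014), and 1 higher, the transcription factor Foxi1 (0.64, adjusted p = 0.026). Summed, the principal cell markers lay at 660 to 804 CPM in Grhl2KO_Myc, 706 to 836 in Myc and 570 to 910 in wildtype, and the intercalated ones at 85.6 to 99.6, 114 to 139 and 66.0 to 98.2 CPM in the same groups. Markers of the thick limb and distal tubule summed to 902 to 1250 CPM in Grhl2KO_Myc, 1390 to 1620 in Myc and 1210 to 1730 in wildtype, with 0 of 6 called in Grhl2KO_Myc against wildtype. Summed podocyte markers were at 638 to 705 CPM in Grhl2KO_Myc and 862 to 939 in wildtype (2 of 5 called lower, 0 higher), and endothelial markers at 467 to 497 and 528 to 582 CPM in the same groups (3 of 6 lower, 0 higher). Lymphocyte markers summed to 29.8 to 39.9 CPM in Grhl2KO_Myc and 20.7 to 25.4 in wildtype, where 1 of 7 tested was called higher, Ptprc (log2 0.90, adjusted p = 0.0012), and the T cell markers Cd3e and Cd3g were at or near 0. Of 12 markers of proliferating cells, 0 were called higher and 1 lower, Mki67 (log2 -0.30, adjusted p = 0.024). Proximal tubule markers summed to 2520 to 6520 CPM in Grhl2KO_Myc, 5380 to 7010 in Myc and 2290 to 8480 in wildtype, with 2 of 30 called lower in Grhl2KO_Myc against wildtype (Hnf4a and Cyp2e1) and 0 higher. The Y-linked gene Ddx3y was above 10 CPM in Grhl2KO_Myc 1 and 4, Myc 3 and wildtype 5, and with a term for it 37 factors were called, where 2.74% of all genes were called higher.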

How the data were processed

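Polyadenylated RNA of 12 whole right kidneys was sequenced from TruSeq libraries that do not mark strand, per the labels' protocols. Reads were aligned with HISAT2 to mm10, per the submitters' processing notes; for the counting program, its annotation and its handling of reads with several matches, nothing is stated. The values the authors deposited are whole-number read counts per gene, 1 column per library, with totals of 52973520 to 108164810, and 0 columns of other samples were found. Groups were taken from the labels and matched to columns by name. All 19 pairs of replicates differed beyond sampling noise (lowest chi-square per degree of freedom 12.7), so none was counted as a repeat.

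Counts were filtered with the default of edgeR 4.0.16 (R 4.3.3), scaled by TMM and tested with its quasi-likelihood test in 1 fit over all 12 libraries, with Benjamini-Hochberg adjustment over 23742 genes. The log2 fold change and the test statistic together gave its standard error, and approximate 95% intervals are 1.96 SE to each side. Scores used log2 CPM with a prior count of 2. The members, the other pathway genes, the marker lists and the 3 libraries left out together were chosen with earlier results of these data known. Named by rule were the factors with the smallest adjusted p per step (3 in each subunit step), all factors not called, those with the largest and smallest change, and up to 3 further pathway genes per step. The pathway list had 132 genes, of which 131 were in the table.

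Gene positions and exon overlaps are from GENCODE M21 on mm10, promoters from RefSeq on GRCm38.p6 (47 of 56 matched), and near copies are transcripts with at least 95% identity over at least 200 bases. Alternatives were RLE scaling, no filter, DESeq2 1.42.0, fits of 2 groups, a replicate block, a term for Ddx3y, a proximal tubule covariate, and leaving out libraries. The procedure was tested on simulated data with 50 genes changed per fold: for Grhl2KO_Myc against wildtype (23458 genes) it recovered 20% of 1.25-fold, 54% of 1.5-fold, 90% of 2-fold and 98% of 4-fold changes. For Grhl2KO_Myc against Myc (23467 genes) it recovered 6% of 1.25-fold and 56% of 1.5-fold changes, and for Myc against wildtype (23458 genes) 8% and 52%. The changed genes were drawn at random from genes above a low level, with the spread of each, and not from the 56 factors. These shares therefore do not give the recovery for the factors.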

Additional observations from a re-analysis of the deposited data

Results flagged for a closer look

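In each of the 56 factors the 4 Grhl2KO_Myc and the 5 wildtype libraries were searched for a highest or lowest library that stood apart from the rest of its group by Dixon's test, and 16 of 112 groups had one. The rate of about 1 in 20 expected by chance holds for independent groups. These groups are measured in the same libraries, and the rate over all genes was not computed, so no excess can be read from the count. Of the 16, 12 were wildtype 4, each time the highest of its group. This library was the highest wildtype library for 32.1% of all genes tested. Its CPM, with the range of the 4 other wildtype libraries, was 83.6 for Fbl (64.5 to 69.3), 57.7 for Imp3 (38.6 to 40.4), 35.0 for Dcaf13 (26.3 to 28.8), 31.7 for Nop16 (23.6 to 25.2), 25.6 for Wdr74 (17.7 to 20.0) and 35.2 for Nip7 (24.8 to 26.7). It was 28.1 for Mrto4 (23.3 to 24.2), 44.9 for Ppan (32.2 to 34.1), 52.4 for Ebna1bp2 (41.2 to 43.0), 65.2 for Ftsj3 (53.1 to 54.8), 656 for Npm1 (516 to 546) and 78.1 for Nolc1 (66.7 to 69.5).

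Grhl2KO_Myc 4 stood above its group for Nop16 at 36.1 CPM (others 33.7 to 33.9) and for Nolc1 at 102 CPM (89.9 to 91.3). Grhl2KO_Myc 1 stood below its group for Pes1 at 74.4 CPM (82.3 to 84.0), and Grhl2KO_Myc 3 for Gnl2 at 62.5 CPM (67.4 to 68.0).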

How the results depend on the processing

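Of the 41 factors called higher in Grhl2KO_Myc against wildtype, 29 were called in all 20 alternatives, and the number called was 29 to 50 when 1 library was left out. The median log2 fold change of the 56 factors lay between 0.312 and 0.372 over those omissions, between 0.194 and 0.263 in Grhl2KO_Myc against Myc and between 0.0923 and 0.141 in Myc against wildtype. The calls of the second of these comparisons depend on single libraries and on the tool. In Grhl2KO_Myc against wildtype Rrp1b was called in 5 of the 20 alternatives and Wdr74 in 7. Where a call changed, the cause was not tested. With 3 to 5 libraries a group, changes under 1.5-fold can be missed.

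Leaving out 1 library gave 750 to 3778 calls over all genes and 16 to 81 among the other pathway genes in Grhl2KO_Myc against wildtype, with the lowest values without Grhl2KO_Myc 4 and the highest without wildtype 4. In Grhl2KO_Myc against Myc it gave 0 to 21 factors, 70 to 703 genes and 0 to 12 other pathway genes, and in Myc against wildtype 0 to 6 genes. DESeq2 called 2650, 761 and 43 genes in Grhl2KO_Myc against wildtype, Grhl2KO_Myc against Myc and Myc against wildtype, where edgeR called 1584, 200 and 1. In Grhl2KO_Myc against wildtype DESeq2 called 45 factors, the 41 of edgeR and 4 more. These were Polr1c, Noc3l, Rrs1 and Ebna1bp2 (DESeq2 adjusted p = 0.025, 0.038, 0.041 and 0.041). In Grhl2KO_Myc against Myc DESeq2 called 21 factors and 10 other pathway genes, and in Myc against wildtype 1 factor. Fits of only the 2 groups called 995 genes in Grhl2KO_Myc against wildtype, 2 other pathway genes in Grhl2KO_Myc against Myc and 0 genes in Myc against wildtype. With a term for Ddx3y the calls were 998 genes in the first comparison, 2 factors in the second and 0 genes in the third. Without the 3 libraries low in proximal tubule transcripts, 1 factor and 318 genes were called in Grhl2KO_Myc against Myc.

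Replicate numbers recur across groups, and with the number as a replicate block 37 factors, 993 genes and 29 other pathway genes were called in Grhl2KO_Myc against wildtype, 0 factors and 88 genes in Grhl2KO_Myc against Myc and 0 genes in Myc against wildtype. Same-numbered libraries correlated in their deviations from the group means by only -0.11 to 0.23, -0.07 to 0.05 and -0.05 to 0.10 in these comparisons, so the numbers were not taken as pairing.

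The sign turned for Ubtf in Grhl2KO_Myc against wildtype with the replicate block (log2 -0.00832), with the proximal tubule covariate (-0.0384), without the 3 low libraries (-0.0236), without Grhl2KO_Myc 4 (-0.0211) and without wildtype 5 (-0.0164), and leaving out 1 library gave up to 0.0678 (without wildtype 4). Without the 3 low libraries it also turned for Imp4 (-0.00532) and Bms1 (-0.046), and without Myc 3 for Nolc1 in Myc against wildtype (-0.000599).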

Other observations

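Counted by library, 44, 39, 49 and 52 of the 56 factors lay above the highest wildtype value in Grhl2KO_Myc 1, 2, 3 and 4, and 7, 20 and 27 in Myc 1, 2 and 3. The share of all genes in this position was not computed, so these counts do not show whether the factors stand out. Grhl2KO_Myc 3 had 0 CPM of the Y-linked gene Ddx3y and 0.213 CPM of Xist, so it carried neither transcript at a level seen in the other libraries of either kind.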
